A study of Mus musculus with 2 samples.

Results

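The genes described here are 38 genes of the red cell: its membrane and membrane skeleton, the enzymes of haem synthesis, iron and mitochondrial carriers, erythroid regulators, and genes of red cell metabolism and reticulocyte maturation. They were chosen by symbol from a table of 49315 genes, with the globins left out. RNA came from cells labelled as macrophages of mouse dorsal root ganglia, the sensory ganglia beside the spinal cord. There was 1 library from mice under chronic intermittent hypoxia and 1 from mice under normoxia. Oxygen cycled between 21% and 8% in cycles of 6 min, 10 per hour, for 8 h daily over 14 days in the hypoxia group. The normoxia mice had sham cycles at 21% in the same chambers, and material was taken about 18 h after the last exposure in both groups. The sources used here do not give strain, sex, age, the number of mice per library or how the cells were isolated. Only the initial of its code ties the hypoxia column to its sample, since its number is in no label, whereas initial and number both tie the normoxia column. With 1 library per group no difference has a replicate check, no test was possible, and every interval covers counting error only.

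Red cells carry no nucleus in mammals. Their precursors switch on, under GATA1, TAL1 and KLF1, the globin genes, the haem pathway and a membrane anchored to a spectrin lattice, and they take up iron through the transferrin receptor. The reticulocyte, the last stage that still holds RNA, clears its mitochondria and ribosomes before it becomes a mature red cell. In bulk RNA, fewer cells of a type and less RNA per cell cannot be told apart.

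The hypoxia library held 145056 counts over 2050 genes and the normoxia library 2171348 counts over 4640 genes, a 15.0-fold difference in depth. Genes with at least 10 counts in 1 library and none in the other had a median of 39 counts in hypoxia and 229 in normoxia. These medians were taken as an estimate of reads per starting molecule, which gives about 3719 molecules in hypoxia and 9482 in normoxia. Levels are given as CPM, counts scaled to the library total. The upper limit used for a gene with no count was 3 counts, equal to 20.7 CPM in hypoxia and 1.38 CPM in normoxia. At 3 estimated molecules the limit is 807 CPM in hypoxia and 316 CPM in normoxia. Of 15 macrophage markers 4 were counted in hypoxia and 13 in normoxia, and the defining markers Adgre1, Cd68 and Csf1r were at 0 in hypoxia. On reads 11 of the 13 were lower in hypoxia, Itgam was higher and Lyz2 met neither call. The list took 2.27% of counts in hypoxia and 2.30% in normoxia, most of it from Lyz2. Neutrophil markers took 10.3% of counts in hypoxia and 1.83% in normoxia.

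Red cell genes took a smaller share of the hypoxia library. The 38 genes together held 1162 counts in hypoxia, or 0.801% of the library (95% Clopper-Pearson interval 0.756 to 0.848), and 52455 counts in normoxia, or 2.42% (2.40 to 2.44). The ratio of the shares, hypoxia over normoxia, was 0.332. Its interval was 0.313 to 0.351 on reads and 0.218 to 0.487 on estimated molecules, so it lay below 1 on both. Of the 38 genes, 16 were counted in hypoxia and 36 in normoxia, 15 of them in both. Ank1 was counted in hypoxia alone and 21 genes in normoxia alone. Kel, which encodes the Kell blood group protein, was at 0 in both.

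By gene, the share of lower members on reads was close to that of all genes at a minimum of 50 counts. A gene was called higher or lower when it had at least 50 counts over both libraries, a CPM ratio of at least 2-fold and a 95% interval on reads that excludes 1. Of the 38 members 33 had enough counts, and the 5 others were Kel, Ermap, Ank1, Add2 and Uros. In all, 24 of 33 (72.7%) were lower in hypoxia, where 71.5% of all 4215 genes tested were, and 19 of the 24 had no count there. Only 2 of 33 (6.06%) were higher, Tfrc and Epor, where 16.1% of all genes were, and 7 met neither. With each of 5 other scalings the share of lower members was 75.8% or 72.7% of 33. It was 25 members with TMM scaling (the trimmed mean of M values), where 75.7% of all genes were lower, 25 with DESeq2 size factors (75.5% of all genes), 25 with housekeeping genes (73.5%), 24 with these without Actb (68.8%) and 25 with deposited TPM (73.5%). The minimum count changed the comparison with all genes. With a minimum of 500 counts 21 of 27 members (77.8%) were lower, against 58.9% of all genes, and with a minimum of 1 count 24 of 37 (64.9%), against 54.4%. With a 4-fold rule it was 21 of 33 (63.6%), against 69.4%. The share of higher members was below that of all genes under each of these settings. Higher were 2 of 33 members with TMM (11.9% of all genes), 2 with DESeq2 size factors (12.1%), 2 with housekeeping genes (14.2%), 3 without Actb (18.5%) and 2 with TPM (14.1%). It was 4 of 37 with a minimum of 1 count (24%), 1 of 27 with a minimum of 500 counts (9.14%) and 1 of 33 with a 4-fold rule (10.8%). With intervals on estimated molecules 4 of 33 (12.1%) remained lower, against a background of 0.38%, and none was higher, against 0.83%. Among genes with at least 500 counts the same 4 were lower out of 27 members (14.8%), against 1.57% of all such genes, and none was higher, against 1.47%. The 4 were Slc4a1, Alas2, Car2 and Fam46c. Each was among the 9 members with at least 2000 counts in normoxia, a level that 119 of all genes reached. The backgrounds given here were not matched to that level.

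**Figure D1:**
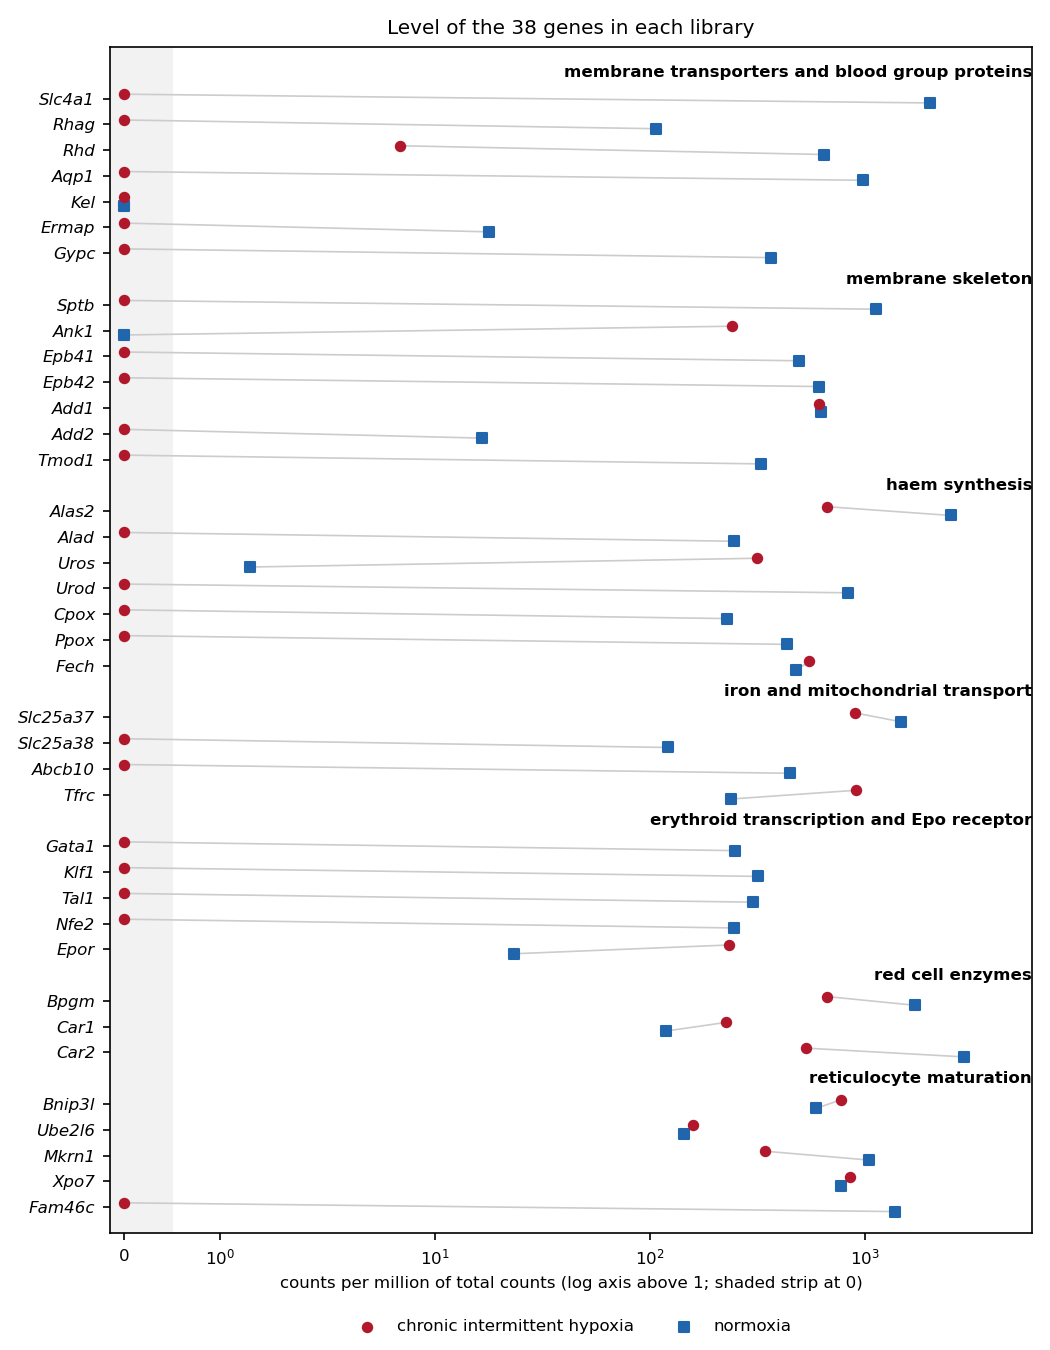
Level of each of the 38 genes in CPM (log axis above 1, shaded strip at 0), with red circles for the chronic intermittent hypoxia library and blue squares for the normoxia library, grouped by role. In hypoxia 21 genes counted in normoxia sit at 0, and Ank1 is the 1 gene that sits at 0 in normoxia alone.

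Several red cell genes that were abundant in normoxia had no count in hypoxia. Of the 9 members with at least 2000 counts in normoxia 5 were counted in hypoxia, whereas 107 of all 119 such genes were (89.9%, Clopper-Pearson interval 83.0 to 94.7). The 4 that were missing were Slc4a1, Aqp1, Sptb and Fam46c. Among genes with 500 to under 2000 counts in normoxia it was 6 of 18 members, against 396 of 858 genes (46.2%, 42.8 to 49.6). Below that level it was 2 of 5 members with 100 to under 500 counts, against 19.6% of all genes, and 2 of 4 with under 100 counts, against 13.4%. The groups of members are small and their difference from all genes was not tested. The median log2 ratio of the 33 members, with each 0 taken as 3 counts, was −3.57, and that of all 4215 genes was −1.94. With each 0 taken as 3 estimated molecules these were 0.40 and 2.35.

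**Figure D2:**
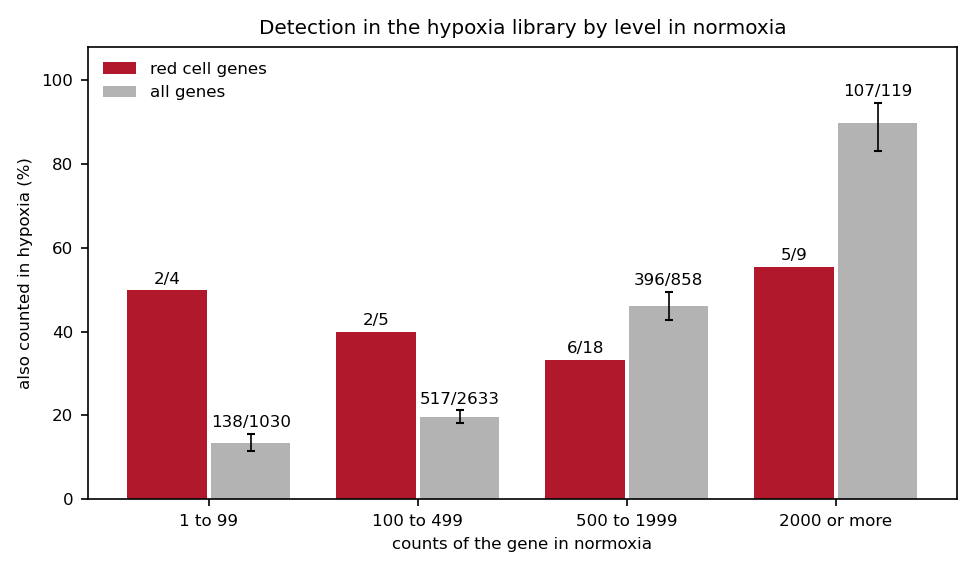
Percent of genes also counted in the hypoxia library, by the gene's count in normoxia, for the red cell genes (red) and all genes (grey), with the number of genes above each bar and Clopper-Pearson 95% intervals on the grey bars. At 2000 counts or more, 5 of 9 red cell genes and 107 of 119 genes overall were counted in hypoxia.

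Of the 7 groups by role, the membrane transporters and blood group proteins had the lowest ratio of shares. These 7 genes together held 1 count in hypoxia and 8973 in normoxia, 0.413% of that library. The ratio of shares was 0.0017, with an upper limit of 0.0093 on reads and 0.255 on estimated molecules. All 5 members with at least 50 counts were lower in hypoxia on reads, where 71.5% of all genes tested were. Slc4a1 (ENSMUSG00000006574, chromosome 11, on GRCm38 as are all positions here) encodes band 3, the anion exchanger that carries bicarbonate and anchors the skeleton to the membrane. It had 0 CPM in hypoxia and 2014 CPM in normoxia, at least 97.4-fold lower with 0 taken as 3 counts. It is the member of this group whose interval on molecules lay below 1, with an upper limit of 0.543.

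Aqp1, the water channel, had 0 CPM in hypoxia and 979 CPM in normoxia, at least 47.3-fold lower on counts, with an upper limit of the ratio on molecules of 1.24. Aqp1 is also made by endothelial cells, and all 8 endothelial markers were at 0 in both libraries. Which cells gave the Aqp1 counts was not tested. Of the Rh family, Rhd, the Rh blood group protein, had 6.89 CPM in hypoxia from 1 count, and 646 CPM in normoxia from 1403 counts. Its ratio was 0.011, its interval on reads 0.00027 to 0.060 and its upper limit on molecules 2.14. Rhag, the ammonium channel that carries the Rh complex, had 0 CPM in hypoxia and 107 CPM in normoxia. Gypc, the glycophorin that ties protein 4.1 to the membrane, had 0 CPM in hypoxia and 368 CPM in normoxia. Ermap, an erythroblast membrane protein, had 0 counts in hypoxia and 39 in normoxia, under the minimum. The levels of Rhag, Gypc and Ermap in normoxia are all below the 807 CPM of 3 molecules in hypoxia, so at this depth their absence cannot be told from too few molecules.

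The membrane skeleton held a smaller share in hypoxia, with Add1 at a like level and Ank1 found in hypoxia alone. Its 7 genes held 0.085% of counts in hypoxia (0.071 to 0.102) and 0.321% in normoxia (0.313 to 0.328), a ratio of 0.266 (0.055 to 0.833 on molecules). Sptb (ENSMUSG00000021061, chromosome 12), the β chain of erythroid spectrin, had 0 CPM in hypoxia and 1131 CPM in normoxia, at least 54.7-fold lower on counts, with an upper limit of the ratio on molecules of 1.05. Its exons overlap those of Plekhg3 on the other strand, which had 0 counts in hypoxia and 196 in normoxia, and the strand setting is not given. Epb42, protein 4.2, which joins band 3 to ankyrin, had 0 CPM in hypoxia and 616 CPM in normoxia. Epb41, protein 4.1, which joins spectrin to actin, had 0 CPM in hypoxia and 492 CPM in normoxia. Tmod1, the tropomodulin that caps the short actin filaments, had 0 CPM in hypoxia and 328 CPM in normoxia, and it overlaps Tstd2 on the other strand, which had 0 counts in hypoxia and 301 in normoxia.

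These 4 were lower on reads, where 71.5% of all genes tested were, and none of them on molecules. The exceptions were Add1 and Ank1. Add1, the widely expressed α-adducin, had 614 CPM in hypoxia and 624 CPM in normoxia, a ratio of 0.982 (0.784 to 1.22 on reads, 0.116 to 5.20 on molecules). Its partner Add2 had 0 counts in hypoxia and 36 in normoxia. Ank1 (ENSMUSG00000031543, chromosome 8), the ankyrin that links band 3 to spectrin, had 35 counts or 241 CPM in hypoxia and 0 in normoxia. Its 35 counts amount to 0.897 estimated molecules, and it was under the minimum.

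**Figure D3:**
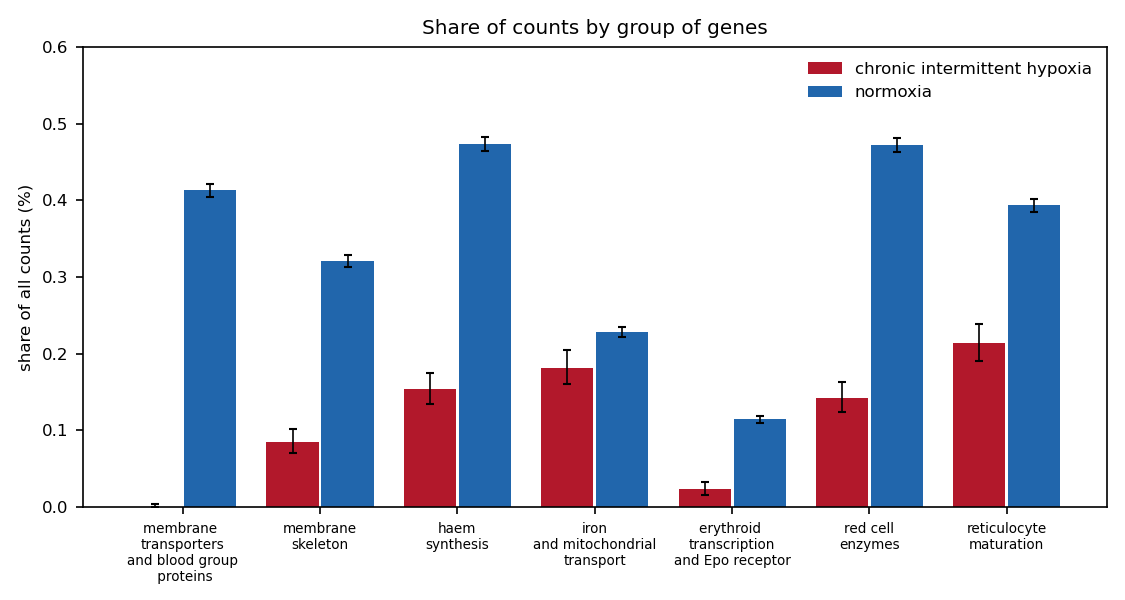
Share of all counts held by each group of genes, in percent, in the chronic intermittent hypoxia library (red) and the normoxia library (blue), with exact 95% intervals on reads. Every group is lower in hypoxia, from 0.181% against 0.228% for iron and mitochondrial transport to 1 count against 0.413% for the membrane transporters and blood group proteins.

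The haem pathway held a smaller share in hypoxia and was uneven along its steps. Its 7 genes held 0.154% of counts in hypoxia (0.134 to 0.175) and 0.474% in normoxia (0.465 to 0.483), a ratio of 0.325 (0.110 to 0.776 on molecules). Of the 6 with enough counts 5 were lower on reads, where 71.5% of all genes tested were, and 1, Fech, met neither. Alas2 (ENSMUSG00000025270, chromosome X), the erythroid enzyme of the first and rate-limiting step, had 97 counts or 669 CPM in hypoxia and 5450 counts or 2510.0 CPM in normoxia. It was 3.75-fold lower, with a ratio of 0.266 (0.216 to 0.326 on reads, 0.041 to 0.960 on molecules). Apex2, which overlaps Alas2 on the other strand, had 60 counts in hypoxia and 0 in normoxia. Reads of the pair cannot be told apart without strand. Urod, which acts on uroporphyrinogen, had 0 CPM in hypoxia and 835 CPM in normoxia, at least 40.4-fold lower on counts, with an upper limit of the ratio on molecules of 1.51.

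The other steps were sparser. Alad, the second enzyme, had 0 CPM in hypoxia and 246 CPM in normoxia. Cpox and Ppox, which oxidise the late intermediates in the mitochondrion, had 0 CPM each in hypoxia, with 229 CPM for Cpox and 434 CPM for Ppox in normoxia. All 3 levels in normoxia lie below the 807 CPM of 3 molecules in hypoxia. Fech, the ferrochelatase that inserts iron in the last step, stood at 552 CPM in hypoxia and 481 CPM in normoxia, a ratio of 1.15 (0.902 to 1.44 on reads). Uros, which closes the porphyrin ring, had 46 counts in hypoxia and 3 in normoxia, under the minimum, a ratio of 230 with a lower limit of 73.8 on reads and 0.115 on molecules. Alas1, the housekeeping form of the first enzyme, had 18 counts in hypoxia and 282 in normoxia.

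Read per length, in deposited TPM (counts per transcript length, scaled within the library), the order of the steps differed between the libraries. In hypoxia Alas2 led with 391 TPM, then Fech with 267 TPM and Uros with 125 TPM, and Alad, Urod, Cpox and Ppox were at 0. In normoxia Alas2 had 1911 TPM, Urod 590 TPM, Fech 303 TPM and Alad 240 TPM, and Uros was last with 0.707 TPM.

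**Figure D4:**
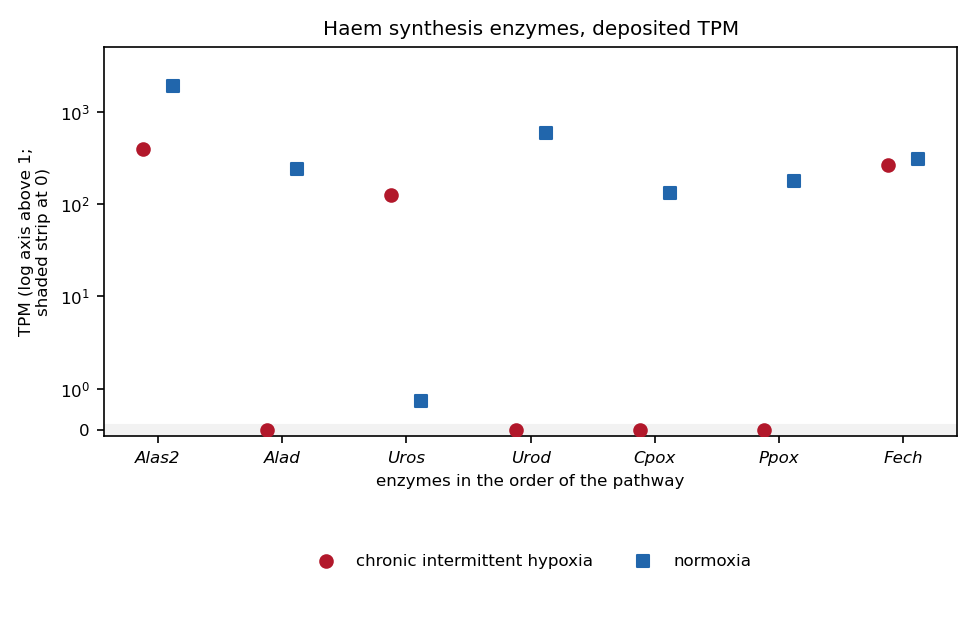
Deposited TPM of 7 enzymes of haem synthesis in pathway order (log axis above 1, shaded strip at 0), with red circles for the chronic intermittent hypoxia library and blue squares for the normoxia library. Alas2 is the highest in both, and Alad, Urod, Cpox and Ppox sit at 0 in hypoxia.

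Of the iron and mitochondrial carriers, Tfrc was higher in hypoxia on reads and Abcb10 and Slc25a38 were lower, and none passed on molecules. The 4 carriers held 0.181% of counts in hypoxia (0.160 to 0.205) and 0.228% in normoxia (0.222 to 0.234), a ratio of 0.796 (0.281 to 1.96 on molecules) that turned to 1.13 without Slc25a37. Tfrc (ENSMUSG00000022797, chromosome 16), the transferrin receptor that takes iron into the cell, had 132 counts or 910.0 CPM in hypoxia and 517 counts or 238 CPM in normoxia. Its ratio was 3.82 (3.13 to 4.64 on reads, 0.511 to 37.5 on molecules). Tfrc is expressed by many dividing and activated cells, and which cells gave these counts was not tested. Slc25a37, mitoferrin, which brings iron into the mitochondrion, had 903 CPM in hypoxia and 1471 CPM in normoxia. Its ratio was 0.614 (0.512 to 0.732 on reads, 0.126 to 2.10 on molecules). On reads it passed the 2-fold rule as lower with TMM, at 0.352, and with DESeq2 size factors (0.365), housekeeping genes (0.474) and deposited TPM (0.471). Abcb10, a mitochondrial exporter needed for haem formation, had 0 CPM in hypoxia and 448 CPM in normoxia. Slc25a38, the mitochondrial carrier that serves the first step with glycine, had 0 CPM in hypoxia and 122 CPM in normoxia. The levels of Abcb10 and Slc25a38 in normoxia lie below the 807 CPM of 3 molecules in hypoxia. Their upper limits of the ratio on molecules were 3.53 for Abcb10 and 59.2 for Slc25a38.

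Alas2 and Tfrc messages both carry iron-responsive elements, hairpins with a loop of 6 bases that iron regulatory proteins bind when iron is scarce. In the leader of Alas2 this blocks translation, and in the tail of Tfrc it protects the message from decay. They are shown because Alas2 and Tfrc share them and lay in opposite directions. A search of the GENCODE M21 transcripts for a bulged cytosine, a stem of 5 pairs and a loop of 6 bases that begins with CAGTG found 1 element in the 5′ UTR of Alas2 and 4 in the 3′ UTR of Tfrc, all on the plus strand of GRCm38. Capitals mark the loop.
Alas2, chrX:150547459-150547485: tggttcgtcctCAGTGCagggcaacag
Tfrc, chr16:32631220-32631246: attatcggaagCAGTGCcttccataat
Tfrc, chr16:32631599-32631625: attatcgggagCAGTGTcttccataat
Tfrc, chr16:32631664-32631690: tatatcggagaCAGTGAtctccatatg
Tfrc, chr16:32631711-32631737: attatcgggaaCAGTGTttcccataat
Of the other iron genes, Fth1, the ferritin heavy chain, had 1599 CPM in hypoxia and 3462 CPM in normoxia, a ratio of 0.462 (0.157 to 1.12 on molecules). Ftl1, the ferritin light chain, had 4185 CPM in hypoxia and 2910.2 CPM in normoxia, a ratio of 1.44 (0.720 to 2.77). Glrx5, a glutaredoxin of iron-sulphur cluster assembly, had 1592 CPM in hypoxia and 509 CPM in normoxia, a ratio of 3.13 (0.782 to 13.3). Of 21 other haem and iron genes with enough counts 2 were higher, 14 lower and 5 neither on reads, and none of the 21 passed on molecules. Over all 4215 genes tested 16.1% were higher and 71.5% lower on reads.

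The 4 erythroid transcription factors among the members were counted in normoxia alone. Gata1, which switches on most of the genes described here, had 0 CPM in hypoxia and 251 CPM in normoxia. Klf1, which activates the adult β-globin gene, had 0 CPM in hypoxia and 320 CPM in normoxia. Tal1, the partner of GATA1, had 0 CPM in hypoxia and 303 CPM in normoxia. Nfe2, which acts on globin and platelet genes, had 0 CPM in hypoxia and 247 CPM in normoxia. All 4 were lower on reads, where 71.5% of all genes tested were. With 0 taken as 3 counts it was at least 12.1-fold for Gata1 and at least 15.5-fold for Klf1. Each of the 4 had 500 to under 2000 counts in normoxia, a range where 396 of 858 genes were counted in hypoxia. The levels of these 4 factors in normoxia also lie below 807 CPM.

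Epor, the erythropoietin receptor that keeps early precursors alive, was higher in hypoxia on reads. It had 34 counts or 234 CPM in hypoxia and 51 counts or 23.5 CPM in normoxia, a ratio of 9.98 (6.27 to 15.7 on reads). Both counts amount to under 1 estimated molecule, 0.872 in hypoxia and 0.223 in normoxia, and the interval on molecules began at 0.030. Megakaryocytes and mast cells also use Gata1 and Tal1. Of 15 megakaryocyte and platelet markers Itgb3 and F5 alone were counted, each at 0 in hypoxia, with 414 counts for Itgb3 and 375 for F5 in normoxia, and the defining markers Pf4, Ppbp and Itga2b were at 0 in both. All 10 mast cell markers were at 0 in both libraries. The part of these cell types in the counts of Gata1 and Tal1 was not tested.

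The GATA motif AGATAA was searched on either strand, together with the form AGATAG that ends differently, the form TGATAA that begins differently and the form TGATAG that does both, in the RefSeq promoters of GRCm38.p6, which run from 250 bases before to 50 after each start site. Of the 38 genes 28 had a promoter in that table, 35 promoters in all, and Slc4a1, Ank1, Car1, Car2, Gypc, Nfe2, Fech, Slc25a37, Bnip3l and Xpo7 had none there. Labelled here as mainly erythroid were Slc4a1, Rhag, Rhd, Kel, Ermap, Sptb, Ank1, Epb42, Add2, Tmod1, Alas2, Gata1, Klf1, Tal1, Epor and Car1. The label was not tested, and Gata1 and Tal1 are also used by megakaryocytes and mast cells. A motif was found in 11 of 14 promoters (78.6%) of the members with this label and in 4 of 21 promoters of the other members. Over all 32851 promoters it was found in 29.8%. A match is a description of these letters and no evidence of binding. The upstream 250 bases of 3 of them are shown, since they hold the same motif while the genes lay in different directions: Alas2 and Rhd lower in hypoxia and Epor higher. Capitals mark the GATA motif or its complement.
Alas2, chrX:150547167-150547416, plus strand: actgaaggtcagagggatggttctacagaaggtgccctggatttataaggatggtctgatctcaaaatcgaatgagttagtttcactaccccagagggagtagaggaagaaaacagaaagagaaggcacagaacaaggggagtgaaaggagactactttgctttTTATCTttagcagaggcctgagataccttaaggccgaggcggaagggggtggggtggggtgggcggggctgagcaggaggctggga
Rhd, chr4:134864286-134864535, plus strand: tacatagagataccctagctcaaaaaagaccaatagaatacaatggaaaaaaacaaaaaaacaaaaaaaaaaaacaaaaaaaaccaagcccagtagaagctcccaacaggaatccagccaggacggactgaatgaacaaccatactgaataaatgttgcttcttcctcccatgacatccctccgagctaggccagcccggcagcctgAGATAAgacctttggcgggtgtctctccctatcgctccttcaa
Epor, chr9:21963577-21963826, minus strand: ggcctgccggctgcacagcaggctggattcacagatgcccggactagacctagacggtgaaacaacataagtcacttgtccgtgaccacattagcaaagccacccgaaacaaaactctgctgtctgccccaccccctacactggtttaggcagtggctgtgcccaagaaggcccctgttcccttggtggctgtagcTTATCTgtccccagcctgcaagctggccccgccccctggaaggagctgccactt
The motif begins 86 bases before the start site in Alas2, 43 in Rhd and 54 in Epor.

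Red cell enzymes held a smaller share in hypoxia, with Car2 and Bpgm lower on reads. The 3 genes held 0.143% of counts in hypoxia (0.124 to 0.164) and 0.473% in normoxia (0.463 to 0.482), a ratio of 0.302 (0.097 to 0.742 on molecules). Car2 (ENSMUSG00000027562, chromosome 3), the fast carbonic anhydrase, had 77 counts or 531 CPM in hypoxia and 6279 counts or 2892 CPM in normoxia. It was 5.45-fold lower, with a ratio of 0.184 (0.145 to 0.230 on reads, 0.021 to 0.735 on molecules). Its neighbour Car1, the slower form that is abundant in red cells, stood at 227 CPM in hypoxia and 119 CPM in normoxia, a ratio of 1.91 (1.29 to 2.76 on reads, 0.015 to 118 on molecules), just under 2-fold. Bpgm, which makes the 2,3-bisphosphoglycerate that lowers the oxygen affinity of haemoglobin, had 669 CPM in hypoxia and 1715 CPM in normoxia. Its ratio was 0.390 (0.315 to 0.477 on reads, 0.059 to 1.48 on molecules). Car2 is also expressed outside the red cell lineage. Of 10 Schwann and satellite glia markers 4 were counted in each library, and the list held 0.299% of counts in hypoxia and 0.603% in normoxia. Apoe alone made up 57.4% of the list's counts in hypoxia and 97.6% in normoxia, so these shares mostly follow Apoe. On reads Mbp, Glul and Sparc were higher in hypoxia and Apoe was lower, while Sox10 and S100b were at 0 in both. Their part in the level of Car2 was not tested.

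Of the 5 genes of reticulocyte maturation, 4 were counted in both libraries and 3 of these met neither call. Fam46c and Mkrn1 were lower on reads, and the group held 0.214% of counts in hypoxia (0.191 to 0.239) and 0.393% in normoxia (0.385 to 0.402), a ratio of 0.543 (0.218 to 1.19 on molecules). Bnip3l, the NIX receptor that removes mitochondria from reticulocytes, had 779 CPM in hypoxia and 592 CPM in normoxia, a ratio of 1.32 (1.08 to 1.60 on reads). Xpo7, the nuclear export receptor used when the erythroblast nucleus condenses, had 855 CPM in hypoxia and 777 CPM in normoxia, a ratio of 1.10 (0.909 to 1.32). Ube2l6, a ubiquitin and ISG15 conjugating enzyme, had 159 CPM in hypoxia and 144 CPM in normoxia, a ratio of 1.10 (0.689 to 1.69). None of these 3 passed the 2-fold rule, and all 3 ratios, as that of Fech, turned below 1 with TMM and DESeq2 size factors.

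Mkrn1, a ubiquitin ligase, had 345 CPM in hypoxia and 1042 CPM in normoxia, a ratio of 0.331 (0.245 to 0.438 on reads, 0.015 to 1.99 on molecules). Fam46c (ENSMUSG00000044468, chromosome 3, named Tent5c in GENCODE), a poly(A) polymerase that stabilises messages, had 0 CPM in hypoxia and 1378 CPM in normoxia. It was at least 66.6-fold lower on counts, with an upper limit of the ratio on molecules of 0.832. Without Fam46c the ratio of the group was 0.836. Of 16 other maturation genes with enough counts 2 were higher, 11 lower and 3 neither on reads. Over all 4215 genes tested 16.1% were higher and 71.5% lower. Ubb, a polyubiquitin gene, had 1641 CPM in hypoxia and 1620 CPM in normoxia, whereas Pim1, Rnf123 and Gabarapl2 were at 0 in hypoxia and at 281, 258 and 251 CPM in normoxia.

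**Figure D5:**
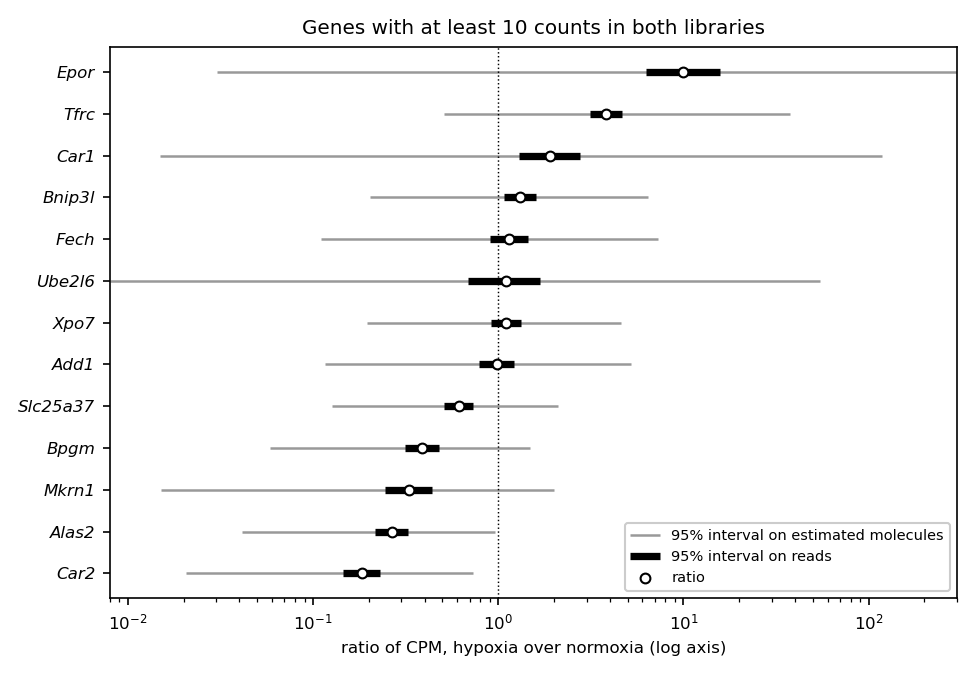
Ratio of CPM, hypoxia over normoxia (log axis), for the 13 red cell genes with at least 10 counts in both libraries, with 95% intervals on reads (thick black) and on estimated molecules (thin grey, cut at the frame). Alas2 and Car2 are the 2 genes here whose interval on molecules lies below 1, and Epor and Tfrc lie at 9.98 and 3.82 with intervals on molecules that span 1.

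The 15 genes counted in both libraries were split in direction. The CPM ratio was above 1 for 8 and below 1 for 7, with a median log2 ratio of 0.14, where the median over all 1158 genes counted in both was 0.75. On reads, 5 of the 15 were lower, namely Rhd, Alas2, Bpgm, Car2 and Mkrn1, and 2 were higher. The 16 members labelled as mainly erythroid held 0.138% of counts in hypoxia and 0.840% in normoxia, a ratio of 0.164 (0.053 to 0.395 on molecules). For the other 22 members it was 0.663% in hypoxia and 1.58% in normoxia, a ratio of 0.421 (0.263 to 0.647). Of the 14 genes with this label that were counted in normoxia 4 were counted in hypoxia, and of the 22 others 11 were. Over all 4640 genes counted in normoxia it was 1158. The intervals of the 2 ratios overlap, and their difference was not tested.

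Set against the globins, the red cell genes had fewer counts in hypoxia. The 4 adult globin genes held 7.69% of counts in hypoxia and 8.92% in normoxia, a ratio of 0.863 (0.752 to 0.987 on molecules). For every 100 globin counts the 38 genes had 10.4 counts in hypoxia and 27.1 in normoxia, a ratio of 0.384 (0.253 to 0.565 on molecules). This ratio does not depend on the scaling of the libraries. By group it ran from 0.0019 for the membrane transporters and blood group proteins to 0.923 (0.326 to 2.27) for iron and mitochondrial transport. It was 0.376 (0.127 to 0.900) for haem synthesis, 0.309 (0.064 to 0.966) for the membrane skeleton and 0.350 (0.113 to 0.860) for red cell enzymes. For the transcription group it was 0.238, with an upper limit of 1.80, and for reticulocyte maturation 0.630 (0.253 to 1.38).

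A list of 31 other erythroid genes, of which 30 were found by symbol, was measured beside them. It held 0.735% of counts in hypoxia and 1.02% in normoxia, a ratio of 0.723 (0.455 to 1.12 on molecules). Of 21 with enough counts 5 were higher, 13 lower and 3 neither on reads, and none passed on molecules. Over all 4215 genes tested 16.1% were higher and 71.5% lower on reads. Hemgn, an erythroid nuclear factor, had 648 CPM in hypoxia and 925 CPM in normoxia. Prdx2, a red cell peroxiredoxin, had 614 CPM in hypoxia and 1482 CPM in normoxia, a ratio of 0.414. Cd47, the widely expressed signal that restrains phagocytosis, had 2144 CPM in hypoxia and 925 CPM in normoxia, a ratio of 2.32 (0.773 to 6.84 on molecules). The markers of macrophages that recycle red cell iron were also at 0 in hypoxia, with 3593 counts in normoxia over 4 of 8 genes, led by Vcam1 at 1493 and Cd163 at 928. The part of these cells in the red cell signal was not tested.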

How the data were processed

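The labels' protocols name TRIzol extraction and, for libraries, the NEBNext Ultra II RNA kit. Subread 1.5.2 with its featureCounts, STAR 2.5.2b and bcl2fastq 2.20 are listed per the submitters' processing notes. The sources used here do not give genome build, annotation, strand setting or any removal of duplicates. Raw read counts per gene and TPM values for both libraries were deposited by the authors. TPM per count was 11.48 to 11.49 times as high in hypoxia as in normoxia across genes with over 20 counts in hypoxia that were counted in both, so TPM is the same measurement and served for levels between genes. Genes without a symbol held 0.023% of normoxia counts and none in hypoxia.

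The 38 members, the gene lists and the groups by role were chosen with earlier results of these data known. Counts were divided by library totals of 145056 in hypoxia and 2171348 in normoxia. Total counts were the main scaling because TMM (edgeR 4.0.16 in R 4.3.3) draws on the 1158 genes counted in both libraries, a selection by detection at the lower depth. Ratios are hypoxia over normoxia with exact conditional binomial (Clopper-Pearson) 95% intervals, computed on reads and on counts divided by the estimated reads per molecule (scipy 1.17.1). That estimate assumes that genes with at least 10 counts in 1 library alone stem from 1 molecule, which was not tested. No molecular identifiers are mentioned, so intervals cover counting error only. No p-value was computed. Named genes were all members and, of other lists, the 4 with most counts; other genes were named after their values were seen, and some genes are not reported here. Positions came from GENCODE M21 (GRCm38), which held all 38 identifiers; the authors' build may differ. The rule was tested on simulated data. Alternatives were TMM, DESeq2 1.42.0 size factors, housekeeping genes, TPM, other minimums and a 4-fold rule.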

Additional observations from a re-analysis of the deposited data

How the results depend on the processing

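With 1 library per group, nothing could be left out in turn, and depth limits most genes: a gene under 807 CPM in normoxia cannot be shown to be absent in hypoxia. No paired analysis was possible because each group has 1 library and no test was made. Relative to total counts, TMM shifts every log2 ratio by −0.80, DESeq2 size factors by −0.75, the housekeeping list by −0.37 and the housekeeping list without Actb, added after the data were seen, by 0.32. The count of lower genes ran from 21 to 25 under every scaling, minimum and fold tried, and fell to 4 with intervals on estimated molecules, also with at least 500 counts. The count of higher genes was 2 to 3 under every scaling. It was 0 on molecules at both minimums, 4 with a minimum of 1 count, 1 with a minimum of 500 counts and 1 with a 4-fold rule. No called gene turned its direction. Fech, Bnip3l, Xpo7 and Ube2l6, which met neither rule, turned below 1 with TMM and DESeq2 size factors.

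The ratio of shares changed in size as follows, and stayed below 1 with each scaling. For all 38 genes, main value 0.332, it was 0.190 with TMM, 0.197 with DESeq2, 0.256 with housekeeping genes, 0.413 without Actb among them, 0.226 with TPM and 0.352 without Car2. In the same order it was 0.153, 0.159, 0.206, 0.332, 0.174 and, without Sptb, 0.411 for the membrane skeleton, and 0.186, 0.193, 0.251, 0.405, 0.233 and, without Alas2, 0.390 for haem synthesis. For red cell enzymes it was 0.173, 0.180, 0.233, 0.376, 0.255 and, without Car2, 0.489. For reticulocyte maturation it was 0.311, 0.323, 0.420, 0.677, 0.432 and, without Fam46c, 0.836. For iron and mitochondrial transport it was 0.456, 0.474, 0.615, 0.992 and 0.529. Without Slc25a37 that group turned to 1.13, led by Tfrc. The transcription group was at 0.117 with TMM and 0.122 with DESeq2.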
